A study of Mus musculus and Homo sapiens with 10 samples.

Results

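The genes described here are the messages of the hypoxia-inducible factor (HIF) pathway, taken by symbol from the gene expression tables of embryonic stem cells treated with vitamin C (vitC). They are the subunits Hif1a, Epas1 and Arnt, the ubiquitin ligase component Vhl, the oxygen-sensing hydroxylases Egln1, Egln2, Egln3 and Hif1an, and 2 targets of the pathway, Bnip3 and Pdk1. All 10 symbols were present among the 25899 genes of the mESC table and, in upper case, among the 35720 genes of the hESC table. RNA-seq was made from 4 control and 4 vitC-treated cultures of E14, an established mouse embryonic stem cell line. The medium was 2i with LIF, in which PD-035901 at 1 µM and CHIR-99021 at 3 µM block MAPK/ERK signalling and GSK3β, and all mESC groups shared it. Treated cultures received vitC for 24 h at 100 µg/ml, and controls were left untreated. 1 control and 1 vitC library came from hESCs kept in KSR/FGF medium, which are H9 in the labels. In the methods this medium is that of primed H9-NK2 cells, which carry inducible KLF2 and NANOG transgenes. Primed H9 cells are described there too, but in medium conditioned by HFF cells. Which of the 2 lines gave these libraries is not settled by these sources. Each control shares its culture label and its number with a treated library, so the mESC libraries form 4 culture pairs. These were grouped here into 2 sets of cultures (pairs 1 and 2, and pairs 3 and 4). The labels give the cultures of pairs 3 and 4 a shared number (35B and 35C), but those of pairs 1 and 2 are 10 and 11. The grouping also rests on earlier results of these data, in which the sets stood apart, so it is not a batch named by the labels. Each species was represented by a single line, and nothing in the labels says that the cultures were grown separately, so p-values measure the spread between these samples only.

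HIF is a dimer of an oxygen-sensitive alpha subunit, either HIF-1α (gene Hif1a) or HIF-2α (gene Epas1), and a stable partner, ARNT. When oxygen is present, prolyl hydroxylases of the EGLN family, which need iron, oxygen and 2-oxoglutarate, mark the alpha subunit for capture by the VHL protein and degradation, and a further hydroxylase, HIF1AN, blocks its transactivation domain. The control is thus exerted on the protein, and vitC is known as a cofactor that keeps the iron of such enzymes reduced. RNA-seq measures the messages of these proteins and of the genes HIF binds, and it does not show the amount, the hydroxylation or the activity of the proteins.

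The mESC libraries held between 3354852 and 6921305 gene reads and the hESC libraries 15367652 and 17188555. All 12 markers of pluripotency were detected in the mESC libraries, at a summed level of 33746 to 36247 normalised reads in controls and 32727 to 36344 with vitC. None of the 12 passed the unpaired test. With the culture pair as a block, 5 were lower with vitC (Nanog, 2432 to 2023 normalised reads on average, Pou5f1, Klf2, Zfp42 and Lin28a) and 2 higher (Tfcp2l1 and Dppa3). Over all tested genes the block called 4.44% lower and 6.36% higher. Of 10 fibroblast markers, 6 had enough reads to be tested. Their summed level, 5852 to 10779 in controls and 7436 to 13767 with vitC, was almost entirely that of the fibronectin gene Fn1. Of the 10, Dcn alone was at 0 in all 8 libraries. Col1a1 averaged 0.813 in controls and 4.07 with vitC, Col1a2 11.2 and 22.4, and Thy1 39.4 and 32.7. The median difference of the 6 tested was 0.19, with 2 of them below 0. None of the 6 markers tested passed the unpaired test, and with the culture pair as a block 2 were higher with vitC, Fn1 (8118 to 10283 normalised reads on average) and Pdgfra (9.90 to 19.5). Markers of primitive endoderm summed to 13.6 to 27.2 normalised reads in controls and 10.7 to 30.7 with vitC. In the hESC libraries the same lists, in upper case, summed to 29817 (control) and 30157 (vitC) normalised reads for pluripotency. For fibroblasts they summed to 40325 and 37812. In the hESC control COL1A1 had 18164 reads, FN1 9957 and COL1A2 6443, and LIN28A had 18081, SOX2 5423 and POU5F1 1034. The other fibroblast markers had 1933 (THY1), 955 (PDGFRB), 231 (PDGFRA), 133 (COL3A1), 96 (POSTN), 7 (LUM) and 0 (DCN) reads. The other pluripotency markers had 1637 (SALL4), 1113 (ZFP42), 643 (NANOG), 82 (KLF4), 11 (TBX3), 7 (TFCP2L1), 3 (KLF2), 3 (DPPA3) and 1 (ESRRB). Both sums thus rested mainly on a few genes. The part of these markers in the results of either species was not tested. Repeats annotated as ribosomal RNA made up 42.0% to 51.5% of the repeat counts in pairs 1 and 2 and 60.0% to 63.1% in pairs 3 and 4, so the culture sets also differed in this measure.

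All members were expressed in mESCs, over a wide range. Levels between genes were compared per length, as RPKM computed from the recovered reads and the longest coding transcript of each gene. On this scale Hif1a was at 38.8 ± 2.54 (SD, n = 4) in controls, Pdk1 at 36.5 ± 4.78, Egln2 at 36.4 ± 0.893 and Arnt at 30.4 ± 1.56. Hif1an was at 16.9 ± 1.24, Vhl at 9.55 ± 2.05 and Epas1 at 6.16 ± 0.402. The lowest were Bnip3, at 3.08 ± 1.08, Egln1, at 2.96 ± 0.142, and Egln3, at 1.15 ± 0.416. In this order the libraries of Hif1a overlapped with those of Pdk1, those of Pdk1 with those of Egln2, and those of Bnip3 with those of Egln1. Pdk1 also overlapped with Arnt, which is not its neighbour (lowest Pdk1 control 31.24, highest Arnt control 31.31). So did Hif1a with Egln2, which are not neighbours either (lowest Hif1a control 36.15, highest Egln2 control 37.21). The other neighbours were separate, in controls as with vitC. Thus the alpha subunit Hif1a was far above Epas1, and of the prolyl hydroxylases Egln2 was far above Egln1 and Egln3. The plot of per-length levels shows each library.

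**Figure D1:**
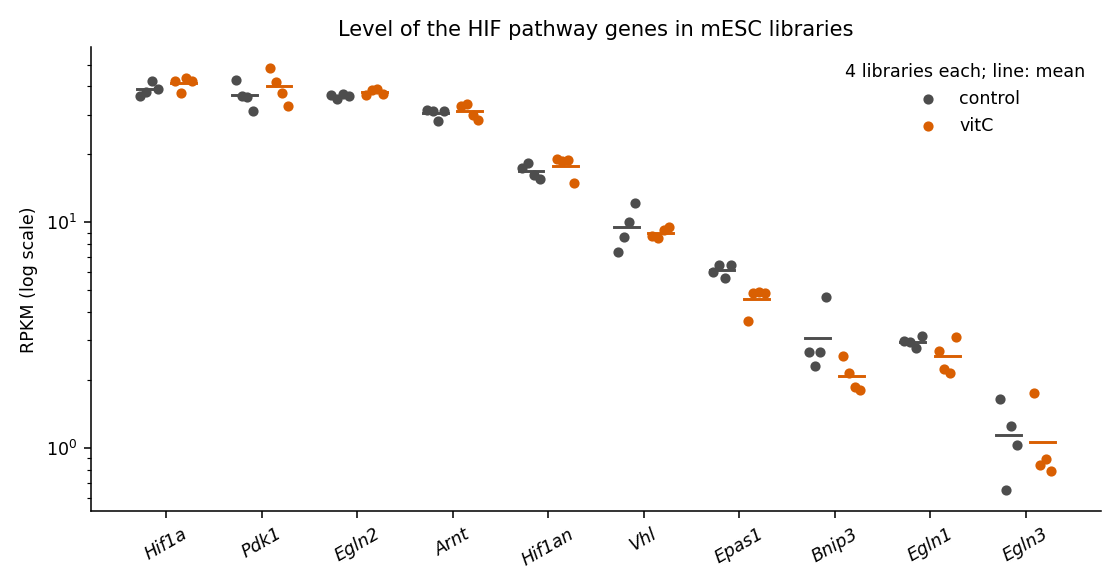
Level of each gene, as RPKM of the longest coding transcript on a log axis, in the 4 control (grey) and 4 vitC (orange) mESC libraries, with the mean as a line and the genes ordered by their control mean. Hif1a, Pdk1, Egln2 and Arnt lie at the top, Egln3 lies lowest with 8 to 27 reads per library, and only for Epas1 do the control and vitC libraries not overlap.

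Differences between vitC and control were tested on the deposited variance-stabilised values, a log2-like scale that compresses the differences of genes with few reads. In the unpaired fit, 0 of 10 members passed the threshold (limma with Benjamini-Hochberg adjustment over 14631 genes, an adjusted p under 0.05), against 0.321% of all tested genes called higher and 0.0205% called lower. Among the members, 1 had an unadjusted p under 0.05, where 7.65% of all tested genes had. By edgeR and DESeq2 on recovered reads, 0 of 10 were called as well. Calls were few among all 14631 genes too, with 35 higher and 3 lower by edgeR and 102 and 16 by DESeq2. With the culture pair as a block, 1 member was called higher, Pdk1, and 1 lower, Epas1, where the background was 6.36% higher and 4.44% lower over all genes. Scaling by the aligned library size turned this split, to 847 higher and 1211 lower genes (edgeR with the block), and kept the call of Epas1 but not that of Pdk1. The median difference of the members was 0.01 and that of all tested genes 0.00, and 5 members lay above 0 and 5 below. The RNA of a bulk culture does not tell fewer expressing cells apart from less RNA per cell, and this holds for each value that follows.

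Of the subunits, Epas1 was the member that differed most clearly. Epas1 (ENSMUSG00000024140.10, GRCm38 chr17:86753700-86833410, plus strand) encodes HIF-2α, the alpha subunit with the more restricted expression. Its size-factor-normalised read counts in controls 1 to 4 were 170.2, 184, 158 and 182, and in vitC libraries 1 to 4 they were 104, 140.5, 139 and 137. All 4 vitC libraries lay below all 4 controls, which over all tested genes was the case for 1.98% (and the opposite for 3.31%), and vitC library 1 lay well below the other three. The mean went from 174 ± 11.9 (SD, n = 4) to 130.0 ± 17.7 (SD, n = 4), a change of -25.2%. On the variance-stabilised scale the difference was -0.25 (95% confidence interval -0.41 to -0.09), with a limma adjusted p of 0.315 in the unpaired fit and of 0.00467 with the pair as a block. On recovered reads the log2 fold change was -0.43 with a standard error of 0.12 (edgeR adjusted p = 0.332), and -0.44 with the block (edgeR adjusted p = 0.000481). The call with the block was lost without pair 1 (limma adjusted p = 0.0530, difference -0.20), and DESeq2 with the block gave an adjusted p of 0.0867.

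Hif1a (ENSMUSG00000021109.13, GRCm38 chr12:73901375-73947530, plus strand), which encodes the broadly expressed alpha subunit, had normalised counts of 874, 919, 1011 and 942 in controls 1 to 4 and of 1024, 923, 1052 and 1023 in the vitC libraries. Each vitC library was above the control of its pair, by 0.4% to 17.1%, but the groups overlapped. Its difference of 0.09 (95% confidence interval -0.05 to 0.23) was not past the threshold in either fit (limma adjusted p = 0.819, and 0.173 with the block). Being higher in 4 of 4 pairs was common, at 15.4% of all tested genes, as was being lower in 4 of 4, at 14.4%. Of the members, 3 were higher in all pairs (Hif1a, Egln2 and Pdk1) and 3 lower (Epas1, Egln1 and Bnip3).

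Within each library, the ratio of Epas1 to Hif1a normalised reads was 0.195, 0.201, 0.157 and 0.193 in controls and 0.101, 0.152, 0.132 and 0.134 with vitC. The vitC ratios all lay below the control ratios. This ratio restates the Epas1 and Hif1a values and was given no test. Arnt (GRCm38 chr3:95434388-95497240), which encodes the partner shared by both alpha subunits, was at 672 ± 37.1 normalised reads in controls and 692 ± 56.2 with vitC (SD, n = 4 each). It was higher in 3 of 4 pairs, with a difference of 0.04 (95% confidence interval -0.12 to 0.19, limma adjusted p = 0.955, and 0.671 with the block).

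Vhl (GRCm38 chr6:113623959-113631633) encodes the recognition subunit of the ligase that takes up hydroxylated HIF-α. Its normalised counts were 105, 124, 143 and 173 in controls 1 to 4 and 125, 124, 133 and 136 with vitC. The controls of the culture sets were apart, with the mean of controls 3 and 4 above that of controls 1 and 2 by 37.5%, and the vitC libraries were close together. Vhl was higher with vitC in pairs 1 and 2 (a mean difference of 0.07) and lower in pairs 3 and 4 (-0.13). The difference over all pairs was -0.03 (95% confidence interval -0.22 to 0.15, limma adjusted p = 0.965), and the test of the difference between culture sets gave an unadjusted limma p of 0.0948.

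The hydroxylases were led by Egln2, the most even gene of the set. Egln2 (GRCm38 chr7:27158658-27166802, minus strand), the prolyl hydroxylase whose message is not itself known as a HIF target, ranged from 381 to 398 normalised reads over the controls and from 397 to 422 with vitC. Its coefficient of variation over the controls was 1.97%, the lowest of the 10 genes, and its difference was 0.05 (95% confidence interval -0.06 to 0.16, limma adjusted p = 0.888, and 0.514 with the block). Egln1 (GRCm38 chr8:124908587-124949324), the main prolyl hydroxylase for HIF-1α and a HIF target, had 54.8, 54.5, 50.9 and 57.4 normalised reads in controls and 49.9, 42.1, 39.7 and 57.1 with vitC. The change was -22.9% and -21.9% in pairs 2 and 3, while pair 4 was nearly level. The Egln1 difference of -0.08 (95% confidence interval -0.22 to 0.05) was not past the threshold (limma adjusted p = 0.827, and 0.382 with the block).

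Egln3 (GRCm38 chr12:54178981-54203860), a prolyl hydroxylase and one of the more strongly inducible HIF targets, had few reads, 8 to 27 in each library. Its normalised counts were 22.4, 8.93, 17.0 and 14.0 in controls 1 to 4 and 24.0, 11.6, 12.2 and 10.8 with vitC. It was higher with vitC in pairs 1 and 2 and lower in pairs 3 and 4, and its coefficient of variation over the controls was 36.2%. It did not pass the test (difference -0.02, 95% confidence interval -0.21 to 0.17, limma adjusted p = 0.978). Hif1an (GRCm38 chr19:44562850-44576274), the asparaginyl hydroxylase also known as FIH, was at 554, 583, 511 and 489 normalised reads in controls and at 605, 605, 598 and 472 with vitC. It was higher in 3 of 4 pairs, by a difference of 0.07 (95% confidence interval -0.11 to 0.25, limma adjusted p = 0.906, and 0.336 with the block).

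**Figure D2:**
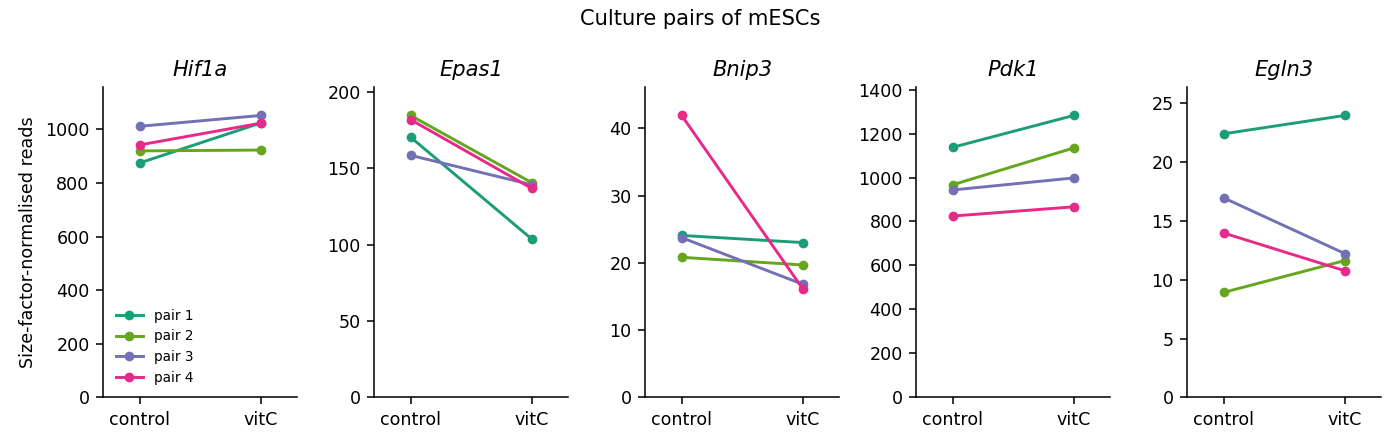
Size-factor-normalised reads, on a linear axis from 0, of Hif1a, Epas1, Bnip3, Pdk1 and Egln3 in the 4 culture pairs of mESCs, with each line joining the control and vitC library of a pair. Epas1 and Bnip3 are lower and Hif1a and Pdk1 higher with vitC in all 4 pairs, the largest step of Bnip3 is that of pair 4, from 41.9 to 16.2, and Egln3 goes up in pairs 1 and 2 and down in pairs 3 and 4.

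The targets Bnip3 and Pdk1 lay on opposite sides of 0. Bnip3 (ENSMUSG00000078566.8, GRCm38 chr7:138890836-138909519, minus strand) encodes a mitochondrial protein that serves as a receptor for mitophagy and is widely used as a readout of HIF-1. It had few reads, 11 to 57 per library, and normalised counts of 24.1, 20.8, 23.8 and 41.9 in controls 1 to 4 and of 23.0, 19.7, 16.8 and 16.2 with vitC. Control 4 stood far above the other controls, whose range overlapped that of the vitC libraries. Within pairs Bnip3 changed by -4.4% and -5.5% in pairs 1 and 2 and by -29.2% and -61.5% in pairs 3 and 4. The difference was -0.14 (95% confidence interval -0.31 to 0.03, limma adjusted p = 0.742, and 0.202 with the block), which is -0.56 as a log2 fold change of the reads (standard error 0.28, edgeR adjusted p = 0.703). With the block and without pair 4 the difference was -0.06 (limma adjusted p = 0.730).

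Pdk1 (ENSMUSG00000006494.11, GRCm38 chr2:71873224-71903858, plus strand) encodes a kinase that switches off pyruvate dehydrogenase and so keeps pyruvate from oxidation in the mitochondria. Its normalised counts were 1138, 967, 943 and 825 in controls 1 to 4 and 1282, 1135, 998 and 867 with vitC. Each vitC library was above its own control, by 12.7%, 17.3%, 5.8% and 5.1%, while the cultures differed among themselves by more than this and the groups overlapped. The mean went from 968 ± 129 to 1071 ± 179 (SD, n = 4 each). The difference of 0.12 had a standard error of 0.12 in the unpaired fit (limma adjusted p = 0.876) and of 0.04 with the pair as a block (limma adjusted p = 0.0493, edgeR adjusted p = 0.0337). That call was narrow: it was lost in each of the fits that left out 1 pair (limma adjusted p from 0.0642 to 0.215) and in DESeq2 with the block (adjusted p = 0.287).

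**Figure D3:**
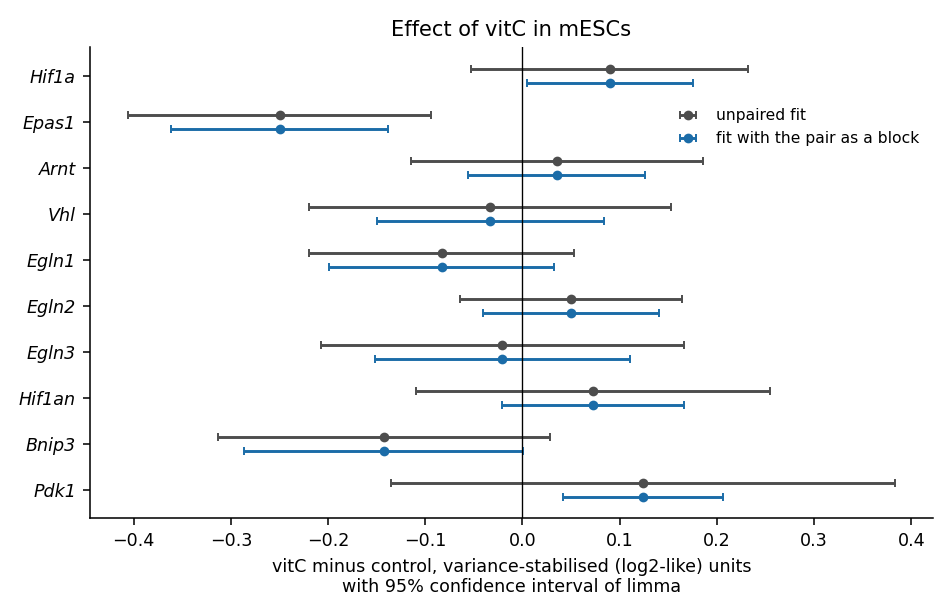
Difference between vitC and control of each gene in mESCs, in variance-stabilised (log2-like) units, with the 95% confidence interval of limma without (grey) and with (blue) the culture pair as a block. The Epas1 interval lies below 0 in both fits, those of Hif1a and Pdk1 lie above 0 with the block only, and the others include 0, that of Bnip3 with the block ending at 0.00.

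The effect of vitC was compared between the culture sets by an interaction term. No gene was called (0% of the 14631 tested by limma, and 0 by edgeR on recovered reads, with 601 and 529 at an unadjusted p under 0.05), and the block added 13 calls over all genes, none of them a member. The unadjusted p of the members lay between 0.0800, that of Bnip3, and 0.975, that of Hif1an. The Epas1 difference was -0.32 in pairs 1 and 2 and -0.18 in pairs 3 and 4, and that of Pdk1 was 0.18 and 0.07. These differences had the same sign in both sets, and so had those of Hif1a, Egln1, Egln2, Hif1an and Bnip3, whereas Arnt, Vhl and Egln3 changed sign.

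The start regions of the members were searched for the core letters of the HIF binding site, ACGTG, and for the variant GCGTG, on both strands (CACGT and CACGC), in the 250 bases before each RefSeq start of GRCm38. RefSeq windows were matched for 9 of the 10 members, with 11 starts in all, and none was matched for Epas1. ACGTG stood in 5 of the 11 windows and either motif in 8, against 16.6% and 38.6% of all 32851 windows. By gene, these were the windows of 5 and of 7 members. Both motifs hold the letters CG, and the windows of all genes were not matched to those of the members for GC content. GC content ranged from 38.4% in the second window of Pdk1 to 86% in that of Egln1, so an excess of motifs in the members was not tested. The windows of Vhl and Hif1an held neither, nor did that of the second start of Pdk1. The stretches below, with the motif letters in capitals and written 5′ to 3′ on the strand of the gene, are shown for Bnip3, Egln3 and Pdk1, which are known as HIF targets, because their messages are the readouts of the pathway described above.
Bnip3, GRCm38 chr7:138909598-138909626, minus strand, from 117 bases before the start: gcgCACGCgccgCACGTGccaCACGCtcc
Egln3, GRCm38 chr12:54204087-54204115, minus strand, motif from 229 bases before the start: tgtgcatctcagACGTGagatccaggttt
Pdk1, GRCm38 chr2:71873134-71873162, plus strand, motif from 78 bases before the first start: ccgcctacatggGCGTGtctttaaccagg
All of these lie upstream of the gene as GENCODE annotates it.

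Bnip3 held 3 motif stretches within 29 bases, the middle one the palindrome CACGTG, which matches ACGTG on both strands, and Egln3 and Pdk1 held a single stretch in the window of their first start. Egln1 held GCGTG upstream and ACGTG in its annotated first exon. Hif1a held ACGTG too, in a window that lies in an intron of the gene as annotated:
Hif1a, GRCm38 chr12:73907720-73907749, plus strand, motif from 135 bases before the start: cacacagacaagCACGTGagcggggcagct
A match of 5 letters is common and is a description of the sequence, not a bound site. The members with ACGTG (Hif1a, Egln1, Egln2, Egln3 and Bnip3) had differences on both sides of 0, from -0.14 for Bnip3 to 0.09 for Hif1a.

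The wider pathway was followed through lists of genes around the members, by role. Of 19 partners and stability factors (other subunits, the parts of the VHL ligase, coactivators, chaperones), 0 passed the unpaired test and 1 passed with the block, the coactivator gene Crebbp, higher in 4 of 4 pairs (1185 ± 179 to 1355 ± 240 normalised reads, difference 0.17, limma adjusted p = 0.831, and 0.00619 with the block). Their median difference was -0.01, and over all tested genes the block called 6.36% higher and 4.44% lower. Siah2, a ligase that acts on the prolyl hydroxylases, had the smallest unadjusted p of the list in the unpaired fit, 0.0536, at 28.4 ± 4.09 reads in controls and 37.3 ± 3.9 with vitC. Hif3a, which encodes a further alpha subunit, was at 32.7 ± 7.39 and 42.7 ± 10.3 and did not pass either test (limma adjusted p = 0.782, and 0.217 with the block).

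Of 19 glycolytic targets of HIF, 14 lay below 0, as did 7460 of all 14631 tested genes. The median difference of the 19 was -0.16, where that of all tested genes was 0.00. Ldha, which encodes the lactate dehydrogenase subunit that makes lactate from pyruvate, passed the unpaired test, at 1481 ± 237 normalised reads in controls and 850.1 ± 83.9 with vitC (SD, n = 4 each). It fell by 42.6% (difference -0.71, standard error 0.10, limma adjusted p = 0.0221). With the block 10 of the 19 were lower and 2 higher, where over all tested genes 4.44% were lower and 6.36% higher.

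The lower ones included Pfkl, a phosphofructokinase (448 ± 55.9 to 296 ± 26.9, limma adjusted p = 0.0558, and 2.34e-05 with the block), and Pkm, pyruvate kinase (6501 ± 770 to 5195 ± 219, limma adjusted p = 0.292, and 1.04e-05 with the block). Pfkfb3, which makes the activator of phosphofructokinase, went from 66.2 ± 10.8 to 46.0 ± 3.6 (limma adjusted p = 0.396, and 0.0216 with the block). Slc16a3, a lactate exporter, had few reads and a wide spread, 25.4 ± 19.4 in controls and 5.15 ± 4.35 with vitC (limma adjusted p = 0.405, and 0.000343 with the block). The 2 higher ones, named after their values were seen, were Hk1, a hexokinase, and Pfkp, another phosphofructokinase. Pdk1 thus lay on the other side of 0 from Ldha, although both are known as HIF-1 targets that act at the fate of pyruvate. The ratio of their changes was not tested.

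Among 41 other HIF targets, 37 had enough reads to be tested, and 0 passed the unpaired test. With the block 5 were lower and 1 higher, against 4.44% and 6.36% of all tested genes. The median difference of these targets was -0.06. Tfrc, the transferrin receptor, had the smallest unadjusted p of this list (3491 ± 586 to 2278 ± 229, difference -0.58, limma adjusted p = 0.100, and 1.46e-06 with the block). Narf, a gene named for its binding of prelamin A, followed (97.8 ± 17.4 to 57.6 ± 2.78, limma adjusted p = 0.105, and 0.000439 with the block). Igfbp3, a binding protein of insulin-like growth factors, went from 40.5 ± 2.32 to 26.2 ± 6.84 (limma adjusted p = 0.408, and 0.0297 with the block). P4ha2, a collagen prolyl hydroxylase, had very few reads, 6.66 ± 2.94 in controls and 2.12 ± 1.7 with vitC (limma adjusted p = 0.511, and 0.0815 with the block). Both were lower in 4 of 4 pairs. Adm, Lox and Pgf, which are HIF targets in other cells and are named here after their values were seen, had 0 reads in all 8 libraries.

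Pdk1 belongs to the control of pyruvate dehydrogenase and Bnip3 to mitophagy, so the genes around each were listed too. Of 11 genes of the pyruvate dehydrogenase complex, its kinases and phosphatases, 0 passed the unpaired test, and their median difference was 0.04. With the block 2 were higher, against 6.36% of all tested genes. Pdhb, a subunit of the complex, went from 396 ± 40.7 to 462 ± 32.6 (limma adjusted p = 0.602, and 0.0135 with the block). The other was the phosphatase Pdp2, named after its values were seen, which acts against the kinases (382 ± 99.6 to 505 ± 219, limma adjusted p = 0.855, and 0.00846 with the block). The related kinase Pdk3 was at 207 ± 17.2 and 179 ± 25.1 and did not pass (limma adjusted p = 0.766, and 0.133 with the block).

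Of 11 mitophagy genes, 10 were tested and 0 passed in either fit, with a median difference of 0.02. Bnip3l, the closest relative of Bnip3, named after its values were seen, was well above it, at 348 normalised reads in controls and 324 with vitC, and lower in 4 of 4 pairs (limma adjusted p = 0.907, and 0.311 with the block). Map1lc3a, a gene of the LC3 family that such receptors bind, had the smallest unadjusted p of the list (75.3 ± 4.83 to 59.0 ± 6.96, limma adjusted p = 0.542, and 0.0673 with the block).

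**Figure D4:**
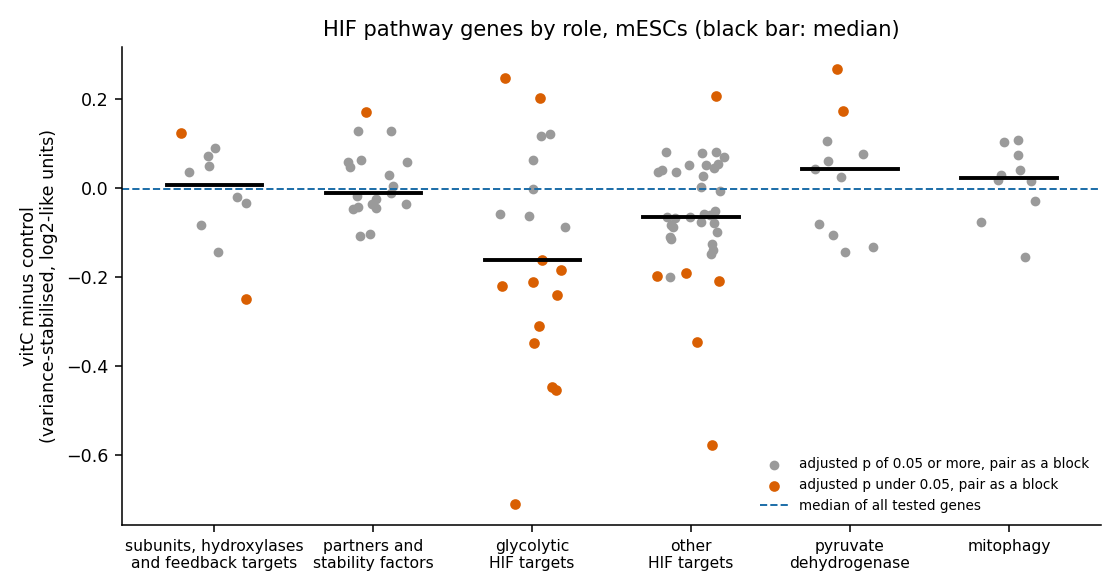
Difference between vitC and control in mESCs, in variance-stabilised (log2-like) units, for each tested gene of 6 lists around the HIF pathway, with the median of each list as a black bar and that of all tested genes as a dashed line. Genes with an adjusted p under 0.05 in limma with the culture pair as a block are orange: the glycolytic targets have 10 below and 2 above 0 and a median of -0.16, and the members have 1 on each side and a median of 0.01.

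The genes whose pattern over the 8 mESC libraries was most like that of a target were found after subtracting the mean of each culture pair, over 14631 genes. They were Chchd6, Tmem211 and Lgals9 for Bnip3 (Pearson's r of 0.999, 0.999 and 0.996), Map3k4, Pramel3 and D630013G24Rik for Pdk1 (0.999, 0.998 and 0.998), and Slc27a2, Gdpd1 and Cyb5d1 for Egln3 (0.999, 0.997 and 0.997). With 4 independent pair differences behind each value and this many genes searched, such values are a description only.

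In the hESC libraries each group is 1 library, so no difference has a replicate check and none was tested. Of the 10 members, 9 had at least 50 reads over both libraries, and 0 of these differed by more than 1.5-fold, against 4.69% of the 13219 genes with that many reads. HIF1A was the highest of the members per length, with 4644 reads in the control and 4883 with vitC, and its normalised reads went from 4939 to 4592 (log2 ratio -0.11, exact 95% binomial interval -0.16 to -0.05). EPAS1 was near absent, with 12 and 15 reads, and its log2 ratio of 0.14 had an interval of -1.05 to 1.37. In controls the ratio of EPAS1 to HIF1A reads was 0.00258, where that of Epas1 to Hif1a was 0.186 ± 0.0200 (SD, n = 4) in mESC controls. A change of EPAS1 as large as that in mESCs was therefore not detectable at this depth.

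Of the human hydroxylases, EGLN3 (312 and 430 reads, log2 ratio 0.29, interval 0.07 to 0.50) and EGLN2 (1375 and 1851 reads, log2 ratio 0.25, interval 0.15 to 0.35) were higher in the vitC library. EGLN2 shares 2012 exon bases with the readthrough gene RAB4B-EGLN2, listed at 1290 and 1692 reads, so its own reads are uncertain. EGLN1 (log2 ratio 0.08, interval -0.08 to 0.24) and VHL (-0.02, interval -0.14 to 0.11) had intervals that include 0. HIF1AN was at -0.11 (interval -0.22 to -0.01) and shares 325 exon bases with NDUFB8 on the opposite strand.

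The targets PDK1 and BNIP3 had log2 ratios of opposite sign in hESCs, where 5 members lay above 0 and 5 below. PDK1 had 1126 and 1392 reads (log2 ratio 0.13, interval 0.01 to 0.24), and BNIP3 688 and 725 (log2 ratio -0.10, interval -0.25 to 0.05), which includes 0. ARNT was at -0.12 (interval -0.28 to 0.03). Scaling by total gene reads or by the aligned library size raised each log2 ratio by 0.02 or 0.05, which turned the sign of VHL and of no other member. The intervals reflect counting error alone and take each read as independent. The reads carry no molecular identifiers and may be copies of 1 molecule, in which case the intervals are too narrow. The difference between 2 cultures treated alike is not known here.

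**Figure D5:**
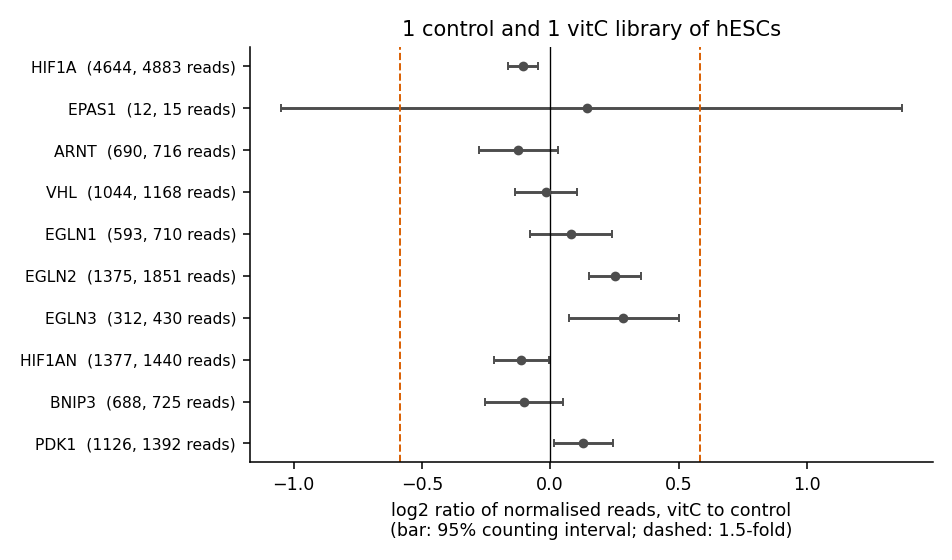
Log2 ratio of normalised reads, vitC to control, of each gene in the 2 hESC libraries, with the exact 95% counting interval as a bar, the reads of both libraries beside each symbol and dashed lines at 1.5-fold. All 10 points lie between the dashed lines, EGLN2 and EGLN3 furthest to the right at 0.25 and 0.29, and the EPAS1 interval, from 12 and 15 reads, spans both lines.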

How the data were processed

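Per the methods, total RNA was depleted of ribosomal RNA (the labels name depletion or mRNA isolation) and made into directional libraries. SQuIRE was used by the authors for mapping (mm10 for mouse, hg38 for human) and for counting, and its version, annotation and use of strand are not given in the sources used here. The deposited gene values are variance-stabilised and log2-like. For repeat subfamilies the authors deposited expected counts and the aligned library size, used here for ribosomal shares and as a scaling, and 7 further columns were not used. Inverting the transformation, with the smallest step taken as 1 read, returned whole numbers in 100% of cases (tolerance 0.05 read), and these divided by size factors are the normalised reads.

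The members and lists were chosen with earlier results of these data known. Named are all members, from each list the genes called in the unpaired fit and up to 4 with the smallest unadjusted p, and the 3 genes most like Egln3, Bnip3 and Pdk1. limma 3.58.1 (R 4.3.3, eBayes with trend) was run on the 14631 genes with a read in 4 or more of the 8 libraries. Equal numbers mark a shared culture label, and such libraries departed from their groups together (correlations over genes of 0.626 to 0.765), so the numbers pair them. The main design has no block, as the methods name none. Alternatives were the block, other filters and scalings, edgeR 4.0.16, DESeq2 1.42.0, pseudocounts of 0.5 and 5, and subsets of libraries. Fits joining the block to a further choice were chosen after seeing the data. The scripts were tested on simulated data. The standard errors beside edgeR fold changes are not an output of edgeR. They were derived here as the size of the log2 fold change divided by the square root of its quasi-likelihood F. Exact Clopper-Pearson limits at 95% were used for hESCs. Coordinates are those of GENCODE vM21 and promoter windows those of RefSeq on GRCm38.p6.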

Additional observations from a re-analysis of the deposited data

Results flagged for a closer look

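In 40 checks (10 members, 2 groups of 4 mESC libraries and 2 scales each), 9 had 1 library whose distance from its nearest neighbour took up most of the group's range, where chance gives about 1 in 20, and the 2 scales of a group are not independent. Epas1 in vitC library 1 was at 104 normalised reads (7.79 on the variance-stabilised scale), below the other vitC libraries. Egln3 in vitC library 1 was at 24.0 normalised reads (6.96 variance-stabilised), above the other vitC libraries, on 25 reads. Arnt in control 3 was at 616 normalised reads (9.55 variance-stabilised), and Hif1an in vitC library 4 was at 472 (9.24 variance-stabilised), each below the others of its group. Bnip3 in control 4 was at 41.9 normalised reads, above the other controls, on this scale only. No member had a called difference of the vitC effect between the culture sets.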

How the results depend on the processing

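Leaving out 1 library lowered the calls over all genes from 47 higher and 3 lower to between 19 and 28 higher and between 0 and 1 lower, with no member called. Of the other unpaired fits, DESeq2 called 102 and 16, edgeR scaled by aligned library size 20 higher, a mean of at least 20 reads 25 and 1, quantile normalization 5 lower, pairs 1 and 2 alone 147 and 28, and pairs 3 and 4 alone 4 and 0. The replicate block (the culture pair) called 931 higher, 650 lower and 2 members. In the fits with the block, higher and lower calls were 1059 and 888 in edgeR (2 members), 847 and 1211 in edgeR scaled by aligned library size (1 member), 355 and 158 in DESeq2 (0 members), 580 and 352 without trend (1 member), 874 and 686 with at least 20 reads (2 members), 879 and 581 without a filter (1 member), 927 and 768 with quantile normalization (1 member), 772 and 501 in pairs 1 and 2 (2 members), and 82 and 18 in pairs 3 and 4 (0 members). Without pair 1, 2, 3 or 4 they were 573 and 356, 690 and 512, 749 and 526, and 612 and 352, with 0, 1, 1 and 1 members. The member called with the block was Epas1 wherever there was 1. The block changed no other member's call and gave 13 genes with a difference between culture sets. Of the differences, those of Hif1a, Epas1, Egln1, Egln2, Hif1an, Bnip3 and Pdk1 kept their sign in all 33 alternatives. Egln3 was not tested with at least 20 reads. That of Arnt became -0.0084 in pairs 3 and 4 alone, with or without the block. Egln3 became 0.049 in pairs 1 and 2 alone and 0.0071 with the block without pair 3, and ranged from -0.084 to 0.026 without 1 library. Vhl became 0.066 in pairs 1 and 2 alone and 0.025 with the block without pair 4, and ranged from -0.097 to 0.038. The difference between culture sets, without 1 library, ranged from -0.069 to 0.13 for Egln1, -0.052 to 0.017 for Egln2, -0.29 to 0.0066 for Egln3, -0.090 to 0.042 for Hif1a and -0.14 to 0.13 for Hif1an, with no call. In hESCs, 143 genes passed 2-fold and 115 passed 1.5-fold with at least 200 reads, with 0 members under each alternative. The causes were not tested. Depth limits Egln3, Bnip3 and EPAS1 most, with as few as 8, 11 and 12 reads.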
